A study of Mus musculus with 20 samples.

Results

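The 9 genes described here encode enzymes of mitochondrial fatty acid oxidation and a transcription factor that controls them, and they were chosen by name: Cpt1a, Cpt1b, Cpt2, Acadm, Acadl, Acadvl, Hadha, Hadhb and Ppara. They are 9 of the 36611 genes obtained by summing the deposited transcripts, and each of the 9 passed the filter on low values in every comparison. RNA was sequenced from inguinal subcutaneous white fat (iWAT) of 20 female C57BL/6 mice in 4 groups of 5. The floxed line was on C57BL/6 N Tac and the Cre line on C57BL/6 J. Control littermates carried floxed Tmem120a alleles (Tmem120a fl/fl) without Cre, and Ad-Tmem120a-/- mice carried the floxed alleles with a Cre driven by the adiponectin promoter, which is active in mature adipocytes, so that the other cells of the tissue keep the gene. TMEM120A is a transmembrane protein of the nuclear envelope. Mice of each genotype were fed for 15 weeks on food with 10.5% (LFD, low fat diet) or 58% of fat (HFD, high fat diet), were 6 months old, and were fasted before dissection. Control LFD mice carry the replicate numbers 1 to 5, knockout LFD mice 6 to 10, control HFD mice 11 to 15 and knockout HFD mice 17 to 21. Levels are given as TPM, a relative abundance that is corrected for transcript length, and fitted changes are log2 fold changes of estimated read counts with their standard error (SE).

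In fatty acid oxidation, long chain acyl groups are passed to carnitine at the outer mitochondrial membrane by CPT1, which malonyl-CoA inhibits, and are handed back to coenzyme A inside by CPT2. Acyl-CoA dehydrogenases for very long (ACADVL), long (ACADL) and medium (ACADM) chains then open each round of shortening, and the trifunctional protein made of HADHA and HADHB completes it for long chains. PPARα, the product of Ppara, is a nuclear receptor that binds fatty acids and switches on many genes of the pathway. Cpt1a is the form known from liver and white fat, and Cpt1b the form known from skeletal muscle, heart and brown fat.

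Sequencing depth ranged from 54605101 to 92387737 estimated counts a library. The number of transcripts with a count differed more, from 31268 in knockout HFD replicate 18 to 52636 in control LFD replicate 3. Tmem120a itself lay at 57.9, 68.2, 85.6, 132 and 83.6 TPM in control LFD libraries and at 29.9, 74.0, 53.7, 21.5 and 28.4 TPM in knockout LFD libraries. It lay at 196, 109.9, 114, 83.3 and 93.6 TPM in control HFD libraries and at 69.2, 29.5, 29.9, 39.8 and 89.7 TPM in knockout HFD libraries. The genotypes overlapped on each diet, and over both diets Tmem120a was lower by a fitted log2 change of -1.64 (edgeR, adjusted p = 0.0073). Adipocyte identity was plain in every library, with the summed level of 14 white adipocyte markers between 21167 and 43734 TPM, led by Fabp4 and Car3. Muscle genes were present as well, and the summed level of 25 fast fibre genes ranged from 54.5 TPM in control HFD replicate 14 to 4701 TPM in control LFD replicate 5.

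The genes lie apart in the genome except for Hadha and Hadhb, which stand head to head on chromosome 5. In the annotation of the assembly the authors used (NCBIM37, mm9), Hadha occupies chr5:30444841-30481702 on the minus strand and Hadhb chr5:30481788-30511133 on the plus strand. Cpt1a lies at chr19:3323301-3385732, Cpt1b at chr15:89246836-89256294, Cpt2 at chr4:107576586-107596215, Acadm at chr3:153585321-153607596, Acadl at chr1:66877413-66909851, Acadvl at chr11:69823685-69828913 and Ppara at chr15:85565413-85633249, all protein coding. RefSeq promoter sequences (GRCm38.p6) were at hand for 8 of the 9 genes, and those of 3 genes are shown for the 250 bases before the start. The Hadhb window lies between the starts of both trifunctional protein genes, which are 273 bases apart, and is shown because these genes moved together. Those of Cpt1a and Acadm are shown because these were the genes whose diet groups did not overlap, and capitals mark the hexamer AGGTCA, the core of the sites that nuclear receptors such as PPARα bind, here read on the other strand as TGACCT.
Hadhb, chr5:30155003-30155252, plus strand: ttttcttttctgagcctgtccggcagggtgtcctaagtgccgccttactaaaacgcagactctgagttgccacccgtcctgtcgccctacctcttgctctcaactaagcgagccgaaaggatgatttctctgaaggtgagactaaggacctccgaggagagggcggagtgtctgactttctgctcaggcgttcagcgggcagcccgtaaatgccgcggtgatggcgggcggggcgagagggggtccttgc
Cpt1a, chr19:3323051-3323300, plus strand: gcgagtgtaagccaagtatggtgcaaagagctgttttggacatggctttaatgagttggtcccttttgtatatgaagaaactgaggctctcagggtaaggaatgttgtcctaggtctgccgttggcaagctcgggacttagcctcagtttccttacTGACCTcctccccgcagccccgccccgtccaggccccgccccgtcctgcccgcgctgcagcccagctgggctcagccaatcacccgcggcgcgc
Acadm, chr3:153944644-153944893, minus strand: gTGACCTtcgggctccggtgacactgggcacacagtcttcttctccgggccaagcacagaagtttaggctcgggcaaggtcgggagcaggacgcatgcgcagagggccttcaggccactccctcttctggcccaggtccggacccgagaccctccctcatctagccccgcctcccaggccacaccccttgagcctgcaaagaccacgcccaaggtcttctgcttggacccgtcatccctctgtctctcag
The hexamer AGGTCA was searched on both strands. It stood in 3 of the 8 windows, those of Cpt1a, Acadm and Acadvl, and in 14.02% of all 32851 promoter windows of this length. A direct repeat of the hexamer with any 1 base between the copies was in 0 of the 8 and in 0.0335% of all. The window between Hadha and Hadhb held neither. Such a match is a description of letters and not evidence of a binding site.

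The dehydrogenases and the trifunctional protein were the abundant members, and the transcription factor the rarest. Over all 20 libraries the mean level was 270.0 ± 65.4 TPM (SD, n = 20) for Acadm, 234 ± 37.2 for Acadl, 208 ± 70.1 for Hadhb, 100.4 ± 28.5 for Hadha and 58.2 ± 24.3 for Acadvl. The carnitine transferases were lower, with 30.4 ± 11.3 TPM for Cpt2, 22.4 ± 5.66 for Cpt1a and 11.5 ± 7.997 for Cpt1b, and Ppara stood at 2.45 ± 1.18. From Hadhb downward the order Hadhb, Hadha, Acadvl and Cpt2 held in 20 of 20 libraries, as did that of Cpt1b over Ppara. The neighbours Acadm and Acadl, Acadl and Hadhb, Cpt2 and Cpt1a, and Cpt1a and Cpt1b could not be ordered in every library, with the mean order seen in 14, 15, 15 and 16 of 20. Hadhb was above its partner Hadha in every library, by a ratio of TPM between 1.48 and 2.72. This is a ratio of gene sums and not of coding transcripts. The coding transcript held 12.9% of Hadha TPM, whereas the main coding transcripts of Hadhb held 63.1% and 31.5% of its TPM.

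The order at the top depended on diet. On HFD, Acadm stood above Acadl in 5 of 5 control libraries (ratio of TPM 1.19 to 1.65) and in 5 of 5 knockout libraries (1.096 to 1.59). On LFD the ratio lay between 0.957 and 1.07 in control and between 0.691 and 1.03 in knockout libraries, so the diets did not overlap in this ratio in either genotype. The form of CPT1 that led also varied when transcripts were summed to genes. In control LFD libraries Cpt1b was above Cpt1a in 3 of 5, whereas Cpt1a led in 5 of 5 libraries of control HFD and of knockout LFD and in 4 of 5 of knockout HFD. The Cpt1b sum includes short transcripts, as given below. Its full-length coding transcript alone reached at most 13.5 TPM, in knockout HFD replicate 17, below the lowest Cpt1a level of any library, 15.0 TPM.

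**Figure D1:**
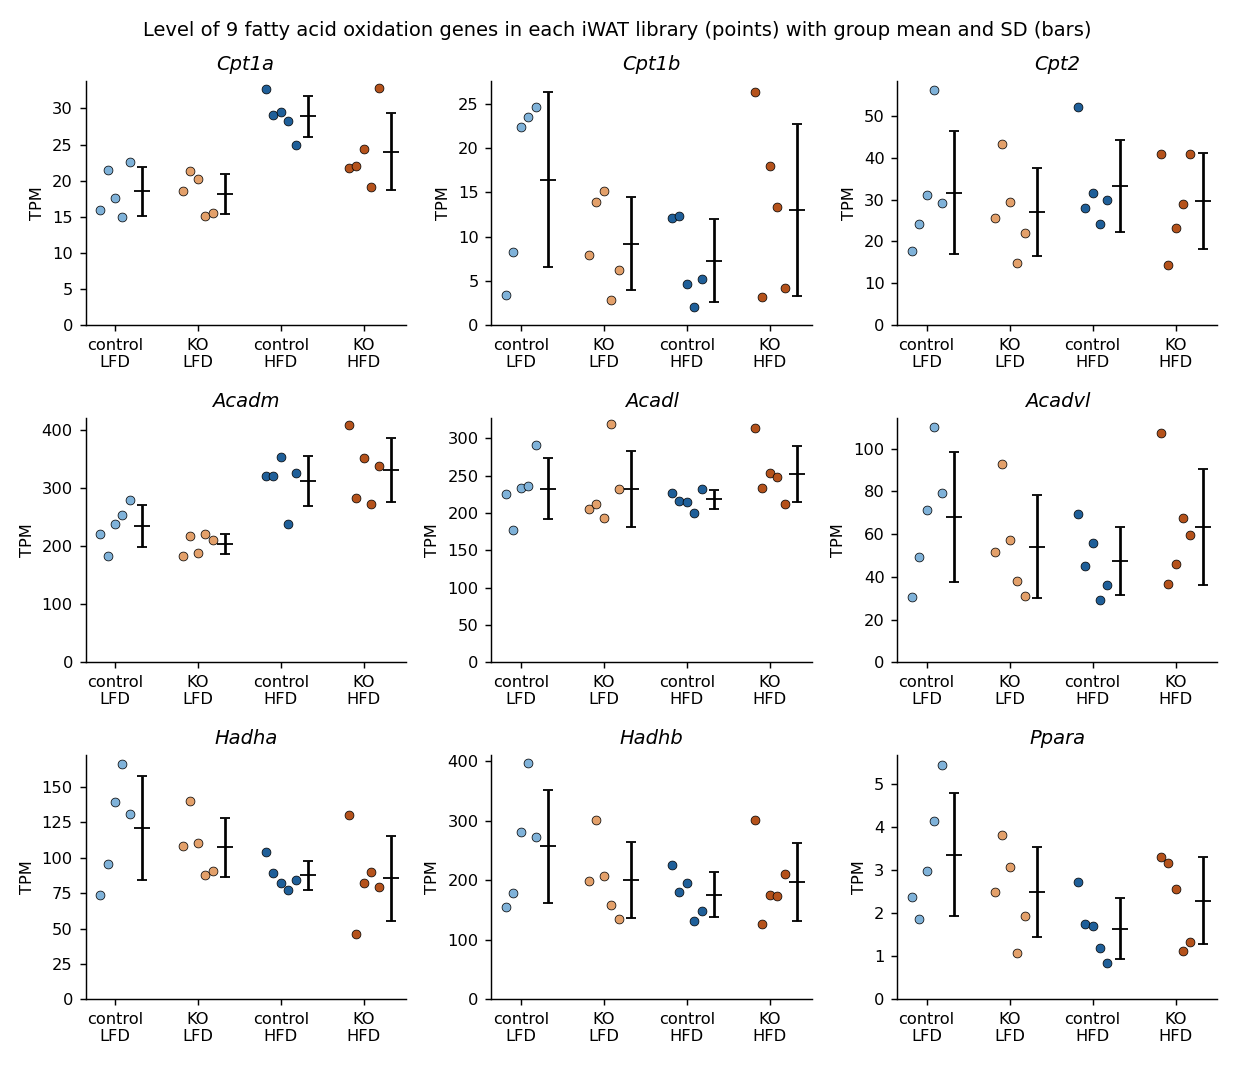
TPM (vertical axes, from 0) of the 9 genes in each of 20 iWAT libraries, one panel per gene, with points for libraries and black bars for the mean and SD of 5 mice in each of the 4 groups (KO, knockout). Cpt1a in control and Acadm in knockout mice separate by diet without overlap, while Cpt1b spreads from 2.001 to 26.4 TPM and overlaps in every comparison.

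Diet was the comparison in which members changed. With both genotypes fitted together (20 libraries), HFD raised Cpt1a and Acadm and lowered Ppara, Hadha and Hadhb, so that 5 of the 9 genes passed an adjusted p of 0.1 (edgeR's quasi-likelihood test with Benjamini-Hochberg adjustment over all genes), 2 higher and 3 lower. Of all 15574 genes tested, 25.2% passed in this comparison, 12.4% higher and 12.8% lower. The median log2 change of the 9 genes was -0.30 and that of all genes -0.027. The calls rested on fitted log2 changes of 0.37 (SE 0.083, adjusted p = 0.0040) for Cpt1a, 0.40 (SE 0.112, adjusted p = 0.0149) for Acadm, -0.83 (SE 0.271, adjusted p = 0.0376) for Ppara, -0.55 (SE 0.182, adjusted p = 0.0402) for Hadha and -0.46 (SE 0.181, adjusted p = 0.0814) for Hadhb, by edgeR. The calls of Cpt1a, Acadm and Hadha held under every other setting run and without any single library. That of Hadhb was lost without any of 14 of the 20 libraries left out singly, without the filter on low values (-0.43, adjusted p = 0.114), with length offsets (-0.44, adjusted p = 0.115) and with limma on TPM (-0.26, adjusted p = 0.359). That of Ppara was lost with limma on TPM (-0.39, adjusted p = 0.158).

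Cpt1a, the outer gate of the pathway in white fat, was the clearest of these. Its levels were 16.0, 21.5, 17.7, 15.0 and 22.6 TPM in control LFD libraries and 32.7, 29.2, 29.5, 28.2 and 24.9 TPM in control HFD libraries. Each control HFD library was thus above each control LFD library (18.6 ± 3.39 against 28.9 ± 2.78 TPM, SD, n = 5), a separation that 8.32% of all genes showed in this direction, and the exact permutation test gave p = 0.0079, the smallest that 5 against 5 allow. In knockout mice the levels were 18.6, 21.3, 20.2, 15.1 and 15.5 TPM on LFD and 21.7, 22.0, 24.4, 19.1 and 32.9 TPM on HFD. Here 4 of 5 HFD libraries were above all LFD libraries (exact permutation p = 0.0397), and 1 knockout HFD library fell within the LFD range. By edgeR the change was 0.44 in control (SE 0.117, adjusted p = 0.0563) and 0.29 in knockout mice (SE 0.126, adjusted p = 0.224), and these did not differ by more than their error (interaction -0.17, SE 0.166, adjusted p = 0.9999). The control call was lost without control HFD replicate 11 (adjusted p = 0.105) or 12 (adjusted p = 0.126).

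Acadm, the medium chain dehydrogenase, rose on HFD in knockout mice. It lay at 182, 217, 188, 221 and 209.7 TPM in knockout LFD libraries and at 408, 282, 351, 272 and 338 TPM in knockout HFD libraries. The groups did not overlap (204 ± 17.5 against 330.2 ± 55.4 TPM, SD, n = 5), as 5.01% of all genes did in this direction, with an exact permutation p = 0.0079. The edgeR change was 0.65 (SE 0.165, adjusted p = 0.0418), and it was the single member called in knockout mice, where 9.4% of all genes were called, 4.55% as higher. It was called in every other setting run, with an adjusted p above the threshold without knockout LFD replicate 6 (0.128) or 8 (0.107). In control mice Acadm lay at 220.2, 184, 237, 253 and 278 TPM on LFD and at 321, 320.3, 353, 238 and 326 TPM on HFD. Their TPM differed (exact permutation p = 0.0238), but the edgeR change was 0.15 (SE 0.152, adjusted p = 0.630), and with TPM scaled by TMM the exact permutation p was 0.198. The difference between the genotypes in this diet effect was 0.47 (SE 0.223), with an unadjusted p of 0.0470 and an adjusted p of 0.9999.

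Ppara moved the other way. It lay at 2.39, 1.87, 2.99, 4.15 and 5.45 TPM in control LFD libraries and at 2.73, 1.76, 1.71, 1.20 and 0.837 TPM in control HFD libraries, so that 4 of 5 HFD libraries were below all LFD libraries. The edgeR change was -1.28 (SE 0.320, adjusted p = 0.0428), and together with Cpt1a it made 2 of 9 members called in control mice, 1 higher and 1 lower, against 9.32% of all genes (4.42% higher and 4.9% lower). On log2(TPM + 1) the exact permutation p was 0.0397, and limma on that scale gave -0.70 with an adjusted p of 0.113. Without control LFD replicate 5, the library with the most fibre RNA, the edgeR change was -1.08 with an adjusted p of 0.101. In knockout mice the levels were 2.503, 3.83, 3.09, 1.09 and 1.95 TPM on LFD and 3.31, 3.16, 2.57, 1.13 and 1.33 TPM on HFD, which overlapped throughout (edgeR -0.38, SE 0.406, adjusted p = 0.679). The difference between these diet effects did not pass the test (0.88, SE 0.539, adjusted p = 0.9999).

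The trifunctional protein genes Hadha and Hadhb fell together. Hadha lay at 73.6, 95.8, 139, 166 and 131 TPM in control LFD libraries and at 104, 89.1, 82.3, 77.5 and 84.5 TPM in control HFD libraries. Hadhb lay at 156, 179, 281, 397 and 272 TPM in control LFD libraries and at 225, 180.4, 196, 131 and 148 TPM in control HFD libraries. Control LFD replicates 3, 4 and 5 were the high libraries for both genes, and the diets overlapped through replicates 1 and 2. The edgeR changes in control mice were -0.78 for Hadha (SE 0.259, adjusted p = 0.109) and -0.79 for Hadhb (SE 0.259, adjusted p = 0.107), just outside the threshold. Without control LFD replicate 1 edgeR called both (adjusted p = 0.0363 and 0.0399). DESeq2 called both (adjusted p = 0.0299 and 0.0277) and also Cpt1b (-1.32, adjusted p = 0.0613), which made 5 members by that tool, where it called 14.4% of all genes. In knockout mice Hadha lay at 108, 140.0, 110.3, 87.9 and 91.0 TPM on LFD and at 129.98, 46.4, 81.9, 90.1 and 79.2 TPM on HFD, and Hadhb at 199, 301, 208, 158 and 135 TPM and at 301, 126, 176, 174 and 211 TPM. The diets overlapped for both in knockout mice, with edgeR changes of -0.32 (SE 0.219, adjusted p = 0.467) and -0.14 (SE 0.216, adjusted p = 0.802). Most Hadha TPM came from transcripts annotated as non-coding, 44.0% from a processed transcript and 41.6% from one with a retained intron, against 12.9% from the coding transcript.

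The remaining members passed no diet test by edgeR with all libraries of the groups compared. Leaving out 1 library gave a call in control mice for Acadvl (-0.96, adjusted p = 0.0809) and Cpt1b without control LFD replicate 1, and for Acadl (-0.44, adjusted p = 0.0800) without control LFD replicate 2. Acadvl, the very long chain dehydrogenase, ranged from 30.5 to 110.2 TPM in control LFD and from 29.2 to 69.5 in control HFD libraries (log2 change -0.78, SE 0.346, adjusted p = 0.230). In knockout mice it ranged from 31.1 to 92.7 and from 36.6 to 107 TPM (0.18, SE 0.308, adjusted p = 0.822). Acadl, the long chain dehydrogenase, ranged from 177 to 291 and from 200.2 to 232 TPM in control mice (-0.32, SE 0.147, adjusted p = 0.238) and from 193 to 319.6 and from 212 to 314 TPM in knockout mice (-0.027, SE 0.206, adjusted p = 0.968). Cpt2 overlapped as fully, at 17.6 to 56.2 and 24.1 to 52.2 TPM in control mice (-0.19, SE 0.282, adjusted p = 0.764) and at 14.9 to 43.3 and 14.4 to 40.9 TPM in knockout mice (0.087, SE 0.278, adjusted p = 0.917). TPM values are not scaled between libraries, and on that scale the median of all genes stood 0.13 above LFD in control HFD mice on log2(TPM + 1), against -0.038 by edgeR. With limma on this scale the fitted diet change of Cpt2 changed sign in control mice and over both genotypes. That of Acadl changed sign in knockout mice and over both genotypes, and in knockout mice also with length offsets by edgeR (0.0048).

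**Figure D2:**
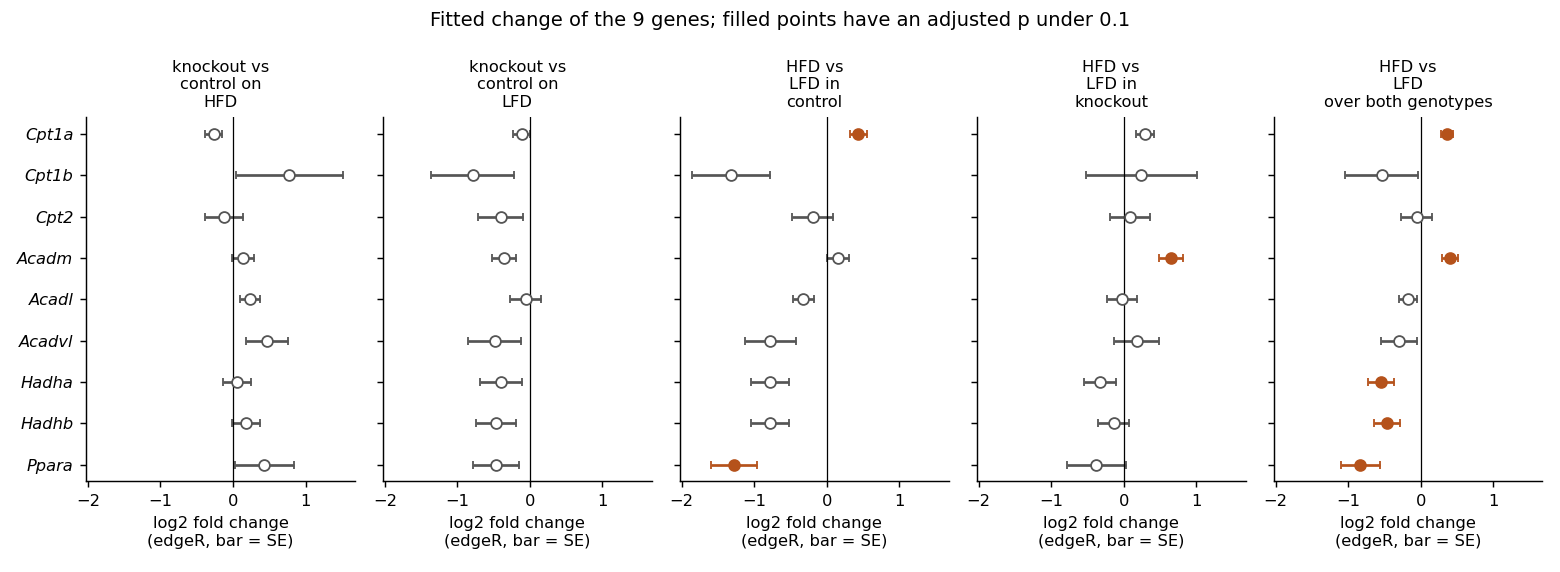
Fitted log2 fold change of the 9 genes (horizontal axes) in 5 comparisons, with bars for the SE and filled points for an adjusted p under 0.1. No point is filled for genotype, while over both genotypes Cpt1a and Acadm lie to the right and Ppara, Hadha and Hadhb to the left.

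For loss of Tmem120a in adipocytes, the question of the study, 0 of the 9 genes were called on either diet by edgeR, and 0 by DESeq2, limma or edgeR's newer method. By edgeR the 1 gene called on each diet was higher in knockout mice, so Tmem120a itself was not called on either diet alone. The absence of calls therefore does not show that the 9 genes were unchanged. At an unadjusted p under 0.05 there was 1 member on HFD, Cpt1a, and 0 on LFD, against 709 of 15228 and 803 of 15717 genes. Genotype calls were rare across all genes, at 0.00657% on HFD, 0.00636% on LFD and 0.0385% over both diets. The genotypes overlapped in TPM for each of the 9 genes, as they did for all but 0.69% of genes on HFD and 1.4% on LFD. The genotype comparisons share their libraries with the diet comparisons. On HFD, Cpt1a was below all control libraries in 4 of 5 knockout libraries, with replicate 21 above all of them at 32.9 TPM (edgeR -0.27, SE 0.119, unadjusted p = 0.0445, adjusted p = 0.999, exact permutation p = 0.0873). With TPM scaled by TMM the exact permutation p was 0.0397, and over both diets edgeR gave -0.20 (SE 0.083, adjusted p = 0.607). Within the 10 HFD libraries Cpt1a was lower where fast fibre genes were higher (r = -0.78, unadjusted permutation p = 0.0124, rho = -0.64), and 4 of the 5 knockout HFD libraries had more fibre RNA than any control HFD library, and the part of this was not tested. Acadl was above all control HFD libraries in 4 of 5 knockout HFD libraries (0.24, SE 0.140, adjusted p = 0.999, exact permutation p = 0.0635).

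On LFD the 9 members had fitted changes below 0 in knockout mice, with a median of -0.40 against -0.018 for all genes, and on HFD 7 of 9 lay above 0 with a median of 0.18 against 0.0060. Brown and beige and fast fibre markers had fitted changes mostly of the same sign on both diets, and white adipocyte markers on LFD only. The other lists were mixed. On LFD 8 of 10 macrophage and 5 of 7 endothelium genes lay below 0, but 8 of 8 lymphocyte and 7 of 9 epithelium genes above 0. On HFD 7 of 9 epithelium genes lay above 0, but 7 of 7 endothelium, 7 of 10 macrophage and 5 of 8 lymphocyte genes below 0. On LFD 10 of 10 brown and beige genes tested (median -0.80), 25 of 25 fast fibre genes (-0.85) and 14 of 14 white adipocyte genes (-0.31) had fitted changes below 0. On HFD 9 of 10 brown and beige genes (median 1.36) and 24 of 24 fast fibre genes (4.92) lay above 0, and 12 of 14 white adipocyte genes below 0 (-0.18). By edgeR 0 genes of these lists were called on either diet. On HFD, however, 23 of 24 fast fibre and 3 of 10 brown and beige genes had an unadjusted p under 0.05, and DESeq2 called 19 and 1 of them, against 0.66% of all genes. On LFD these were 0 fast fibre, 1 brown and beige and 1 white adipocyte gene at an unadjusted p under 0.05, and 0 by DESeq2. The part of these cell types in the members' values was not tested. On LFD the lowest unadjusted p of a member was that of Acadm, 0.0567, for 204 ± 17.5 against 235 ± 35.7 TPM (edgeR -0.35, SE 0.167, adjusted p = 0.929). The genotype effect on HFD less that on LFD passed for 0 of 9 members and for 0.0% of all genes by edgeR, with 560 genes at an unadjusted p under 0.05 and 17 called by DESeq2. Among the members Acadm was the 1 at an unadjusted p under 0.05.

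**Figure D3:**
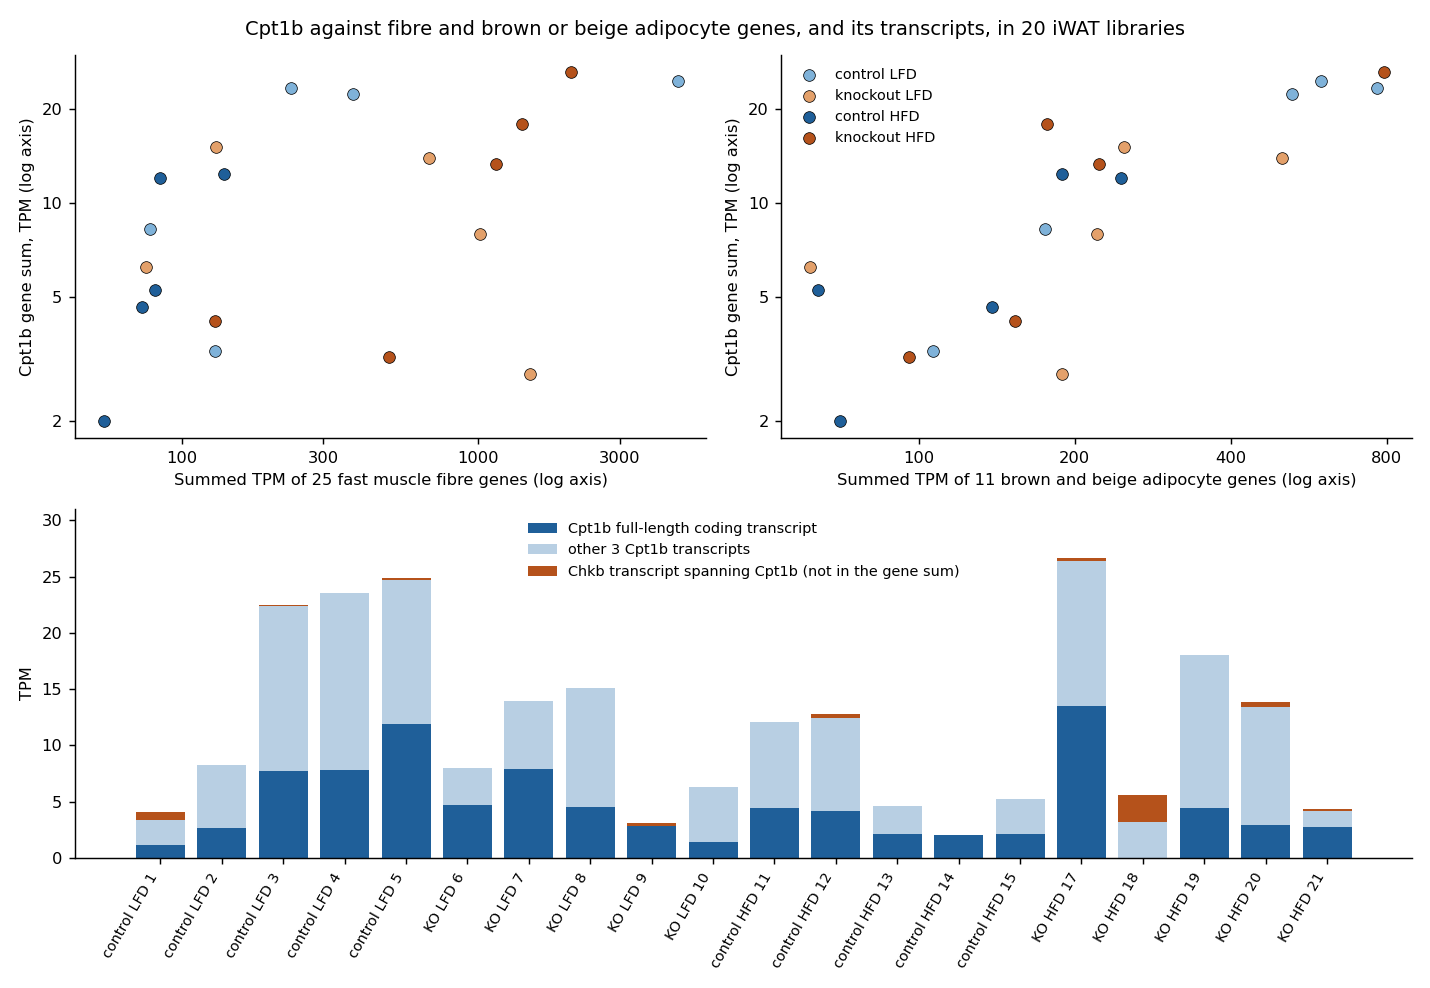
Upper panels, TPM of Cpt1b (log axis) against the summed TPM of 25 fast fibre genes and of 11 brown and beige adipocyte genes (log axes), a point per library coloured by group. The lower panel stacks the TPM of Cpt1b transcripts and of the Chkb transcript that spans Cpt1b, and shows that in KO HFD 18 the full-length transcript is listed at 0 while the spanning transcript reaches 2.39 TPM.

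Cpt1b varied most of the 9 genes, and because muscle makes it too, it was set beside the muscle signal of each library. It lay at 3.36, 8.24, 22.4, 23.5 and 24.7 TPM in control LFD, at 7.95, 13.9, 15.1, 2.82 and 6.25 in knockout LFD, at 12.1, 12.4, 4.62, 2.001 and 5.25 in control HFD and at 26.4, 3.21, 18.02, 13.4 and 4.19 in knockout HFD libraries. The summed fast fibre genes, led by the troponin Tnnt3 and the myosin light chain Myl1, lay in the same order of libraries at 129, 78.1, 378, 234 and 4701 TPM in control LFD and at 1011, 679.7, 131, 1497 and 75.6 in knockout LFD. They lay at 84.5, 139, 73.1, 54.5 and 81.0 TPM in control HFD and at 2062, 499, 1399, 1147 and 129.7 in knockout HFD libraries. The libraries did not rank alike. Knockout LFD replicate 9 had the third highest fibre sum with a low Cpt1b level, and control LFD replicates 3 and 4 had high Cpt1b with fibre sums far below that of replicate 5.

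Over the 20 libraries Cpt1b and the fibre sum, both on log2(TPM + 1), had a Pearson r of 0.47 (permutation p = 0.0380) and a Spearman rho of 0.52 (permutation p = 0.0210), and after adjustment over 27 relations the values were 0.0955 and 0.0567. Without control LFD replicate 5 and knockout HFD replicate 17, the libraries farthest from the median fibre sum, r was 0.27 (permutation p = 0.277), so the relation rested on them. The r was 0.70 in control and 0.31 in knockout mice, and 0.21 on LFD and 0.69 on HFD, with 10 libraries each. The labels give no batch within which to repeat it. The summed slow fibre genes stood between 1.11 and 35.8 TPM and gave an r of 0.26.

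Brown and beige adipocyte genes followed Cpt1b more closely. Their summed level, for 11 genes led by the cytochrome oxidase subunits Cox8b and Cox7a1 and including Ucp1, the uncoupling protein of thermogenic fat, lay at 106, 175, 526, 767 and 596 TPM in control LFD, 220.3, 502, 249, 189 and 61.7 in knockout LFD, 245, 189, 138, 70.5 and 63.9 in control HFD and 789, 95.7, 177, 223 and 153 in knockout HFD libraries. With Cpt1b the Pearson r was 0.83 (adjusted permutation p = 0.00016 over 27 relations, Spearman rho 0.83), and 0.77 without control LFD replicate 4 and knockout HFD replicate 17. It was 0.81 on LFD, 0.84 on HFD, 0.93 in control and 0.68 in knockout mice. Muscle also makes Cox8b and Cox7a1, and without these genes the r was 0.86, while with Ucp1 alone it was 0.74, both lists being chosen after seeing the data. The difference between the correlations with fibre and with brown or beige genes was not tested. The fibre and brown or beige sums were themselves related (r = 0.58), and the number of transcripts detected moved with Cpt1b (r = 0.59) and with the brown or beige sum (r = 0.68), while its r with the fibre sum was -0.031.

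The gene sum of Cpt1b mixes transcripts of unlike length. The full-length coding transcript held 39.4% of the TPM, a fragment annotated for nonsense-mediated decay 32.6% and a short retained intron 27.7%. A transcript of the neighbour Chkb, a choline kinase gene, covers the whole of Cpt1b on the same strand (chr15:89246836-89260127, mm9), so that Salmon can assign shared reads to either. In knockout HFD replicate 18 the full-length Cpt1b transcript was listed at 0 and the Chkb transcript at 2.39 TPM, its highest value, and the Cpt1b count was 34.8 against 260.8 to 4502 in the other 19 libraries. Taking the full-length and the spanning transcript together, chosen after seeing the data, gave means of 6.44 ± 4.20 TPM in control LFD, 4.31 ± 2.39 in knockout LFD, 3.04 ± 1.33 in control HFD and 5.35 ± 4.75 in knockout HFD (SD, n = 5). On this measure the r was 0.66 with the fibre sum (permutation p = 0.0017) and 0.94 with the brown or beige sum. The groups overlapped on it in each comparison, with exact permutation p between 0.159 and 0.770.

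Fitted changes of Cpt1b moved with single libraries. Knockout against control on HFD was 0.77 (SE 0.737, adjusted p = 0.999), and -0.075 without knockout HFD replicate 17, which had the highest fibre and brown or beige sums of its group, or 1.07 without replicate 18. HFD against LFD in control mice was -1.32 (SE 0.536, adjusted p = 0.185), and ranged with a library left out from -0.98 (adjusted p = 0.371) without control LFD replicate 5 to -1.58 without replicate 1, where it was called (adjusted p = 0.0429). In knockout mice it was 0.24 (SE 0.761, adjusted p = 0.914), and on LFD the genotypes differed by -0.79 (SE 0.573, adjusted p = 0.933).

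**Figure D4:**
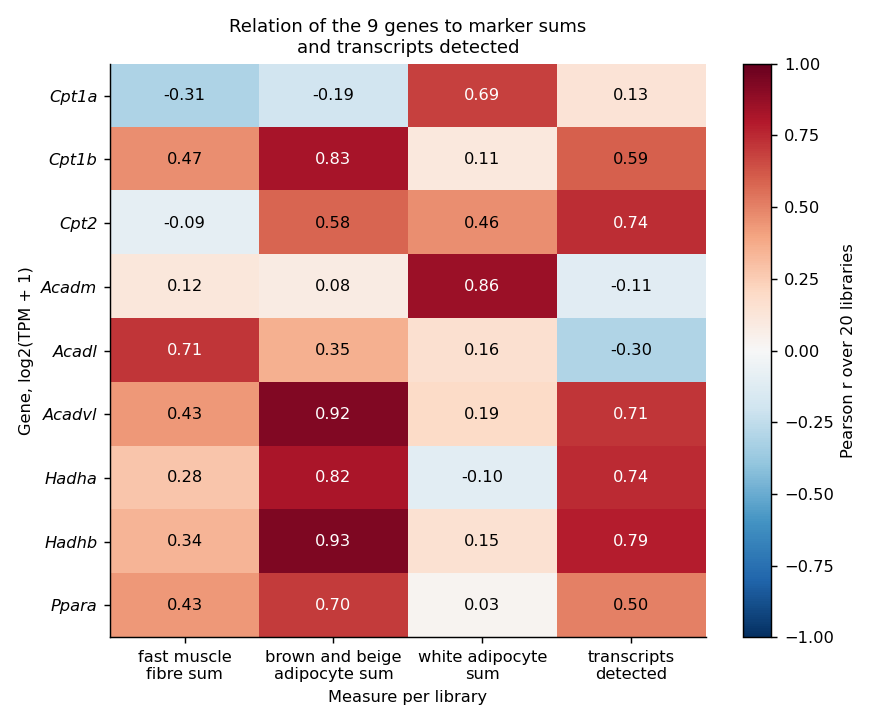
Pearson r over 20 libraries between log2(TPM + 1) of each gene (rows) and 4 measures per library (columns), the log2 sums of 3 marker lists and the number of transcripts with a count, on a colour scale from -1 to 1. Hadhb (0.93) and Acadvl (0.92) follow the brown and beige sum, Acadm (0.86) the white adipocyte sum and Acadl (0.71) the fast fibre sum.

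The same comparison for the other members split them into groups. With the brown and beige sum, r was 0.93 for Hadhb, 0.92 for Acadvl, 0.82 for Hadha, 0.70 for Ppara and 0.58 for Cpt2, with adjusted permutation p between 6.75e-05 and 0.0205. The 6.75e-05 rests on the smallest p that 100000 resamples can give, 1e-05. Spearman's rho for these 5 genes was 0.87, 0.89, 0.82, 0.66 and 0.60. Without the 2 farthest libraries r was 0.91, 0.88, 0.76, 0.64 and 0.43, so that of Cpt2 rested on them (permutation p = 0.0728). Within LFD and within HFD libraries r was 0.96 and 0.89 for Hadhb and 0.95 and 0.92 for Acadvl. For Hadha and Ppara it was 0.90 and 0.71, and 0.73 and 0.58, on LFD and HFD. With Cox8b and Cox7a1 left out of the sum, r was 0.86 for Hadhb, 0.81 for Acadvl, 0.80 for Hadha and 0.75 for Ppara. For Cpt2 it was 0.44 (unadjusted permutation p = 0.0532). With Ucp1 alone r was 0.67, 0.63, 0.63 and 0.69 for the same 4 genes, and 0.17 for Cpt2 (unadjusted permutation p = 0.465). These genes also moved with the number of transcripts detected, with r of 0.79 for Hadhb, 0.74 for Hadha and Cpt2, 0.71 for Acadvl and 0.50 for Ppara, and the part of this in the relation was not tested.

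Acadm followed white adipocyte genes instead, with r = 0.86 (adjusted permutation p = 6.75e-05, Spearman rho 0.85) and 0.86 without the 2 farthest libraries, 0.77 within LFD and 0.64 within HFD. Cpt1a had r = 0.69 with the same sum (adjusted permutation p = 0.0033, Spearman rho 0.72), but -0.079 within LFD libraries and 0.71 within HFD libraries, and both the gene and the sum were higher on HFD. Acadl was the member that moved with fast fibre genes, at r = 0.71 (adjusted permutation p = 0.0014, Spearman rho 0.66), 0.58 without the 2 farthest libraries, 0.67 within LFD and 0.85 within HFD. Of 27 relations computed for 9 genes and 3 lists, 9 had an adjusted permutation p under 0.05, of which 6 were with the brown and beige sum, 2 with the white adipocyte and 1 with the fibre sum.

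The marker sums also differed between the diet groups in which members changed. In control mice the brown and beige sum had a median of 526 TPM on LFD and 138 on HFD, and the fibre sum 234 and 81.0. The genes of these lists that edgeR called lower on HFD in control mice were 4 of 10 tested for brown and beige adipocytes (Cidea, Elovl3, Cox7a1 and Slc27a2) and 16 of 24 tested for fast fibre, against 4.9% of all genes. DESeq2 called 5 and 8 of these genes, where it called 14.4% of all genes in either direction. Ucp1, named after its values were seen, fell short of the threshold by edgeR at -3.14 (SE 1.097, adjusted p = 0.126) but was called by DESeq2. The medians in knockout mice were 220.3 and 177 TPM for the brown and beige and 679.7 and 1147 TPM for the fibre sum, with 0 genes of either list called by edgeR or DESeq2 or at an unadjusted p under 0.05. In whole tissue fewer cells of a type and less RNA per cell cannot be told apart, and the part of these cell types in the lower Ppara, Hadha and Hadhb was not tested. Transcripts with a count ranged from 40605 to 52636 in control LFD and from 34792 to 52428 in control HFD libraries. The part of this number in the diet changes was not tested either. The white adipocyte sum had medians of 30232 TPM on LFD and 35194 on HFD in control mice, where edgeR called 1 of 14 markers higher (4.42% of all genes), and of 22144 and 36684 TPM in knockout mice, with 2 of 14 called higher (4.55% of all genes).

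Among themselves Acadvl, Hadha, Hadhb, Cpt1b and Cpt2 varied together across libraries. The Pearson r over 20 libraries was 0.94 for Acadvl with Hadhb, 0.88 for Hadha with Hadhb, 0.80 for Cpt1b with Acadvl and 0.79 for Cpt2 with Acadvl, and 8 of the 36 pairs were above 0.7. After subtracting group means Acadvl and Hadhb still had 0.97, and Hadha and Hadhb 0.91. Acadl and Cpt1a, which also act on long chains, stood outside this set. For Acadl r was 0.24 with Acadvl, 0.19 with Hadhb, 0.15 with Hadha and -0.089 with Cpt2, and for Cpt1a it was -0.12 with Cpt1b and 0.0020 with Acadvl. These are descriptions over libraries that share composition and depth, with no test.

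The genes most like each member were taken over the same 20 libraries, out of 13976 with at least 1 TPM on average. They do not test the split given above, and Cox8b, Cidea, Elovl3, Adipoq and Fabp4 are themselves on the marker lists. Those near Hadhb included Cox8b (r = 0.95) and the respiratory chain gene Uqcrh (0.94), and those near Acadvl included Hadhb itself (0.94). Cpt1b was nearest to Letmd1 (0.89), the citric acid cycle gene Idh3b (0.85) and Cidea (0.83), a lipid droplet protein of thermogenic fat. Acadm was nearest to Decr1 (0.96), an auxiliary enzyme for unsaturated fatty acids, and to the adipocyte genes Adipoq (0.90) and Fabp4 (0.89). Acadl was nearest to Hibch (0.79), Asb11 (0.78) and the muscle glycogen gene Ppp1r3a (0.77). For Cpt1a these were Dusp3 (0.95), Man2b1 (0.95) and Rpn2 (0.95), and for Ppara Aqp11 (0.79), the fatty acid elongase Elovl3 (0.75) and Pde4a (0.75). For Hadha they were Adck3 (0.92), Lace1 (0.91) and Mtfp1 (0.90), and for Cpt2 C030006K11Rik (0.96), Ndufa13 (0.95) and Echs1 (0.95), the enoyl-CoA hydratase.

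**Figure D5:**
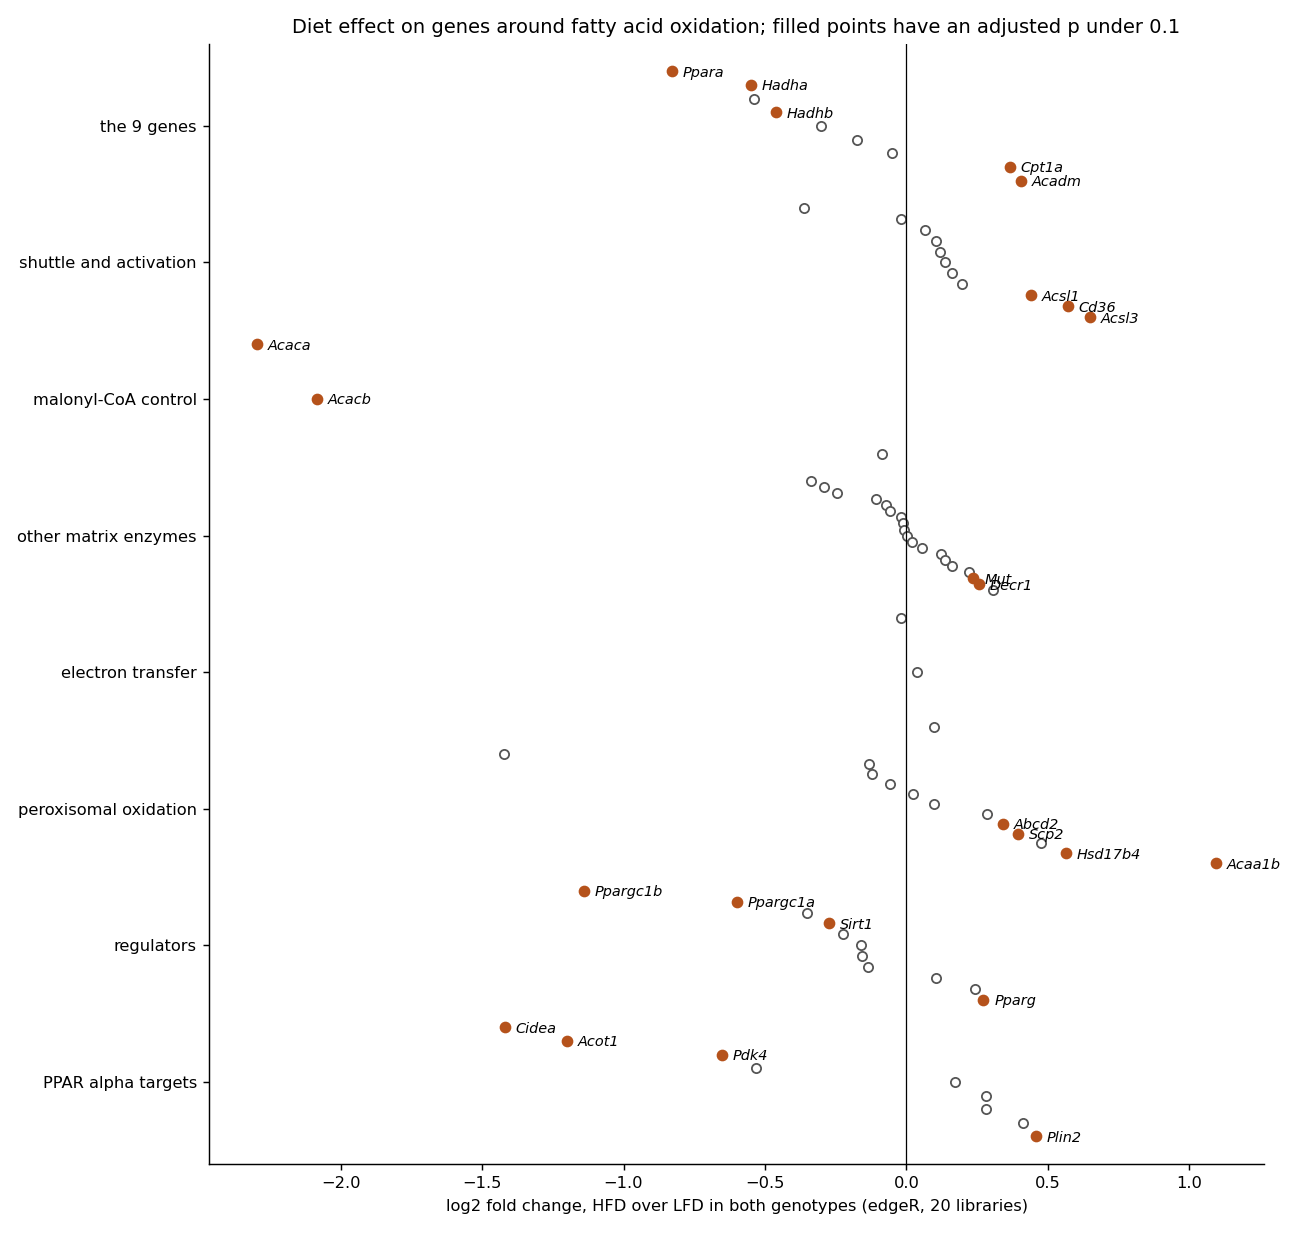
Fitted log2 fold change of HFD over LFD in both genotypes together (horizontal axis) for the 9 genes and the genes shown of 7 related lists (rows), with filled, named points for an adjusted p under 0.1. Acaca and Acacb stand far to the left at -2.29 and -2.08, and called peroxisomal genes lie to the right.

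The genes around these enzymes were called for diet at about the share of all genes over both genotypes and in control mice. In knockout mice they were called at a higher share than all genes, a difference that was not tested. Of 73 genes in 7 lists, 69 were tested over both genotypes, and 12 rose and 8 fell on HFD by edgeR, where 25.2% of all genes were called. The 7 lists cover carnitine shuttle and acyl-CoA activation, malonyl-CoA, other matrix enzymes, electron transfer, peroxisomal oxidation, regulators and PPARα targets. Within control mice 7 of 70 tested were called (9.32% of all genes) and within knockout mice 13 of 69 (9.4% of all genes), and 5 of them were called in both genotypes: Acaca, Acacb, Ppargc1b, Acaa1b and Hsd17b4. For genotype 0 of these genes were called by edgeR or DESeq2 on either diet. At an unadjusted p under 0.05 by edgeR there were 3 of 69 on HFD and 6 of 70 on LFD. Of all genes, 709 of 15228 and 803 of 15717 were under it. The smallest p on HFD were those of Acsl3 (0.69), the fatty acid binding protein gene Fabp3 (2.71) and Cidea (1.497), and on LFD those of Hsd17b4 (-0.28), Pparg (-0.37) and Etfa (-0.37), given with their log2 change. Fabp3 and Cidea are also made by muscle or thermogenic fat.

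Over both genotypes the largest falls among called genes of these lists were in the enzymes that make malonyl-CoA, the inhibitor of CPT1. In control mice alone Cidea had the larger change, -2.58 by edgeR (adjusted p = 0.0216). Acaca, acetyl-CoA carboxylase 1, lay between 253 and 568 TPM in control LFD and between 69.3 and 135 in control HFD libraries, and between 329 and 630.2 and between 84.8 and 229 TPM in knockout mice on LFD and HFD. The diets did not overlap in either genotype, and the share of all genes separated in this direction is not given here. The edgeR changes were -2.42 in control (SE 0.325, adjusted p = 0.0036) and -2.17 in knockout mice (SE 0.325, adjusted p = 0.0036). Acacb, the mitochondrial form, fell by 2.41 on the log2 scale in control (adjusted p = 0.0157) and by 1.75 in knockout mice (adjusted p = 0.0222), from a mean of 13.3 to 3.40 TPM and from 13.9 to 4.14 TPM. Mlycd, the remaining gene of this list, which removes malonyl-CoA, had a change of -0.086 over both genotypes (SE 0.251, adjusted p = 0.863).

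Peroxisomal oxidation, which shortens very long chains outside the mitochondrion, was the list with most rises. Over both genotypes 5 of 13 rose, against 12.4% of all genes, and 0 fell, with Acaa1b at 1.09 (adjusted p = 0.0013) and Hsd17b4 at 0.56 (adjusted p = 5.65e-05), and Scp2 and Abcd2 were also among them. In knockout mice 6 of 13 rose (among them Acaa1b, Hsd17b4, Ehhadh, Scp2 and Decr2), against 4.55% of all genes, and in control mice 2 of 12 (Acaa1b and Hsd17b4), against 4.42%. The difference between genotypes passed for 0 of the 13, with Ehhadh at 0.87 (SE 0.344, unadjusted p = 0.0202, adjusted p = 0.9999).

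The counts for the other lists stand beside 12.4% of all genes called higher and 12.8% called lower over both genotypes. Of genes that bring fatty acids in and activate them, 3 of 11 tested rose over both genotypes, the fatty acid receptor Cd36 by 0.57 (adjusted p = 0.0138) and the acyl-CoA synthetases Acsl1 by 0.44 (adjusted p = 0.0194) and Acsl3 by 0.65 (adjusted p = 0.0034). Other matrix enzymes had 2 of 19 called, Decr1 (0.26, adjusted p = 0.0590) and Mut (0.24, adjusted p = 0.0476), and of the 3 electron transfer genes 0 were called by edgeR, with unadjusted p of 0.651 or more. Among 11 regulators Pparg rose by 0.27 (adjusted p = 0.0363), while the coactivators Ppargc1a (-0.60, adjusted p = 0.0246) and Ppargc1b (-1.14, adjusted p = 0.0012) and the deacetylase Sirt1 (-0.27, adjusted p = 0.0659) fell. Of 9 PPARα targets tested, the lipid droplet gene Plin2 rose by 0.46 (adjusted p = 0.0618), and Cidea (-1.42, adjusted p = 0.0504), Acot1 (-1.20, adjusted p = 0.0086) and Pdk4 (-0.65, adjusted p = 0.0871) fell. The calls of Pdk4, Ppargc1a and Sirt1 were lost with limma on TPM, those of Pdk4 and Sirt1 also without the filter on low values and that of Pdk4 with length offsets. Pdk4 was called in 10 and Sirt1 in 12 of the 20 fits that left out a library, Plin2 in 16, Decr1 in 17 and Cidea in 19. Cidea is also on the brown and beige list and moved with it.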

How the data were processed

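Total RNA of iWAT was depleted of ribosomal RNA and sequenced as stranded read pairs, 1 library for each of 20 mice. The deposited tables hold TPM and estimated counts per Ensembl transcript, which the authors made with Salmon 0.13.1 on transcripts of mouse assembly NCBIM37 (mm9). The methods also describe an alignment with STAR 2.5.3, and whether the deposited values passed through it is not stated in the sources used here. Salmon splits reads among transcripts that share sequence, so the share of short or overlapping transcripts is uncertain. Of 96533 transcripts, 94334 (97.7%) were matched to a gene and summed to 36611 genes, and 0 columns belonged to other samples.

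Summed estimated counts were rounded to whole numbers and tested with edgeR 4.0.16 (TMM, quasi-likelihood, R 4.3.3) on genes that averaged 0.5 TPM or more over the libraries compared, at a Benjamini-Hochberg adjusted p of 0.1, with 2 groups of 5 for each comparison and 20 libraries for effects over both diets or genotypes and for the interaction. Single genes were also compared by two-sided exact permutation tests on log2(TPM + 1), with 252 assignments. Correlations used two-sided permutation tests with 100000 resamples. DESeq2 1.42.0, limma 3.58.1 on log2(TPM + 1) or log2(TPM + 0.1), RLE factors, no filter, length offsets, edgeR's newer quasi-likelihood method, a fit of all 20 libraries and omission of each library were alternatives. The scripts were tested on simulated data. The labels name separate mice and give no batch. Replicates of a group correlated at r of 0.942 to 0.984.

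The members, the 7 pathway lists and the marker lists were chosen with earlier results of these data known. Named beside the 9 genes and Tmem120a were pathway genes called in a comparison, the 3 with the smallest p in each, the most abundant markers and the 3 genes most like each member, and exceptions are stated. The lists of macrophage, epithelium, lymphocyte and endothelium markers summed to 581 to 1114, 64.6 to 243, 6.96 to 172 and 122 to 317 TPM per library. Promoter windows were read before the start only. Values of some genes that these rules name are not reported here, though counts over lists include them.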

Additional observations from a re-analysis of the deposited data

Results flagged for a closer look

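In 4 of 44 groups of 5 libraries tested, the highest or lowest library stood apart from the others by more than 0.71 of the whole range (Dixon's criterion), and chance alone gives about 5% of such groups. Cpt2 was highest in control HFD replicate 11, at 52.2 TPM against 31.6 in the next library. Acadm was lowest in control HFD replicate 14, at 238 TPM against 320.3 in the next. The fast fibre sum reached 4701 TPM in control LFD replicate 5, where the next library had 378. The brown and beige sum reached 789 TPM in knockout HFD replicate 17, where the next had 223.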

How the results depend on the processing

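No paired analysis was possible because the groups compared share no replicate numbers. Members called for diet in control mice numbered 2 (9.32% of all genes), and 5 with DESeq2 (14.4%). Limma called 1 member at either pseudocount (13.97% and 14.03%), and edgeR's newer method 4 (10.56%). With all 20 libraries in the fit 4 were called (8.86%), and 1 to 6 with a library left out (5.08% to 12.08%). In knockout mice 1 was called (9.4% of all genes), and 0 to 1 with a library left out (4.79% to 8.63%). Over both genotypes 5 were called (25.2% of all genes), 3 with limma at either pseudocount (30.1% and 29.8%) and 4 to 5 with a library left out (21.9% to 26.8%). The r of Cpt1b with the fibre sum was 0.27 without the 2 farthest libraries, 0.26 with the slow fibre list and 0.38 to 0.61 with a library left out. The cause of these shifts was not tested.

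Signs turned for members that passed no test. With limma, whose TPM are not scaled between libraries, at a pseudocount of 1 and of 0.1, the log2 change was -0.099 and -0.10 for Hadha by genotype on HFD (-0.037 with length offsets), 0.12 and 0.12 for Cpt2 by diet in control mice and 0.12 and 0.12 over both genotypes, 0.13 and 0.13 for Acadl by diet in knockout mice (0.0048 with length offsets) and 0.027 and 0.027 over both genotypes, 0.042 and 0.043 for Acadvl by genotype over both diets, -0.0012 and -0.0031 for the Cpt2 interaction, and 0.00023 for Ppara by genotype over both diets at 0.1. The r of Acadm with Ucp1 alone was -0.066. Of 63 pairs of gene and comparison, 17 changed sign on leaving out a library, and 0 of these were called.

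Their ranges for genotype on HFD were -0.042 to 0.66 for Ppara, -0.15 to 0.16 for Hadha, -0.30 to 0.077 for Cpt2, -0.030 to 0.28 for Hadhb and -0.075 to 1.07 for Cpt1b, and on LFD -0.25 to 0.025 for Acadl. Over both diets they were -0.16 to 0.14 for Acadvl, -0.26 to 0.094 for Ppara, -0.0079 to 0.13 for Acadl and -0.43 to 0.17 for Cpt1b. For diet they were -0.40 to 0.097 for Cpt2 in control mice and -0.15 to 0.082 over both genotypes. In knockout mice they were -0.13 to 0.41 for Acadvl, -0.13 to 0.17 for Acadl, -0.086 to 0.27 for Cpt2 and -0.60 to 0.56 for Cpt1b. For the Cpt2 interaction they were -0.032 to 0.45.

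Over all genes, genotype on HFD called 1 gene by edgeR, 100 by DESeq2, 34 by the newer method, 26 without the filter, 5 with length offsets, 3 and 4 by limma and 3 with all 20 libraries. On LFD it called 1, with 17 by DESeq2, 2 by limma and 2 with all 20 libraries, over both diets 6, with 62 by DESeq2 and 4 by limma or with length offsets, and for the interaction 0, with 17 by DESeq2. Diet in control mice called 676 genes higher and 751 lower by edgeR, 1791 and 348 by limma and 2205 in all by DESeq2. In knockout mice it called 714 and 762, with 1009 and 525 by limma and 2247 in all by DESeq2, and over both genotypes 1925 and 1998, with 3510 and 1183 by limma.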
